A study of Mus musculus with 2 samples.

Results

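The genes described here encode 6 mediators that regulatory T cells (Treg cells) can release to restrain other cells or to repair tissue: Il10, Ebi3, Il12a, Fgl2, Areg and Penk. They were taken by symbol from the GENCODE M21 gene tables, all 6 were found, and they are 6 of 55536 annotated genes. The RNA was poly(A)-selected and came from mouse Treg cells, labelled as male, 9 weeks old and primary cells originating from the whole organism. There is 1 biosample, for which the labels name no treatment, and it was sequenced as 2 technical libraries, which held 34697128 and 32049199 estimated counts over annotated genes. No treatment, genotype or control cell population is part of the series, so no level below can be called particular to Treg cells. Each value ± SD is over the 2 technical libraries (n = 2), a spread that leaves out differences between mice. Because this is bulk RNA, a level in few cells and a low level in every cell cannot be told apart.

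The label was checked against markers. All 7 Treg markers were at 108 TPM or more in both libraries, where TPM is a length-corrected transcript level scaled to a fixed total over all rows. Foxp3, the defining transcription factor of these cells, stood at 108 and 111 TPM in libraries 1 and 2. Markers of other cells were present, each below every Treg marker, but some stood above several of the mediators. The 2 CD8 T cell markers summed to 25.8 and 26.1 TPM, nearly all of it Cd8b1. The 8 B cell markers summed to 50.4 and 45.5 TPM. Of these Cd79b stood at 32.97 and 28.65 TPM, above every mediator but Penk in both libraries. The 8 macrophage, monocyte and neutrophil markers summed to 21.2 and 20.7 TPM. The highest of them, Lyz2, stood at 14.4 and 11.9 TPM, above Il10, Areg and Il12a. The sums were 3.70 and 2.69 TPM over 5 plasma cell markers, 3.16 and 2.35 TPM over 6 dendritic cell markers, 3.51 and 2.84 TPM over 4 natural killer cell markers, 2.48 and 1.36 TPM over 5 mast cell and basophil markers, and 0.45 and 0.05 TPM over 4 markers of stroma, endothelium and epithelium. Ncr1 of natural killer cells and Mcpt8 of basophils were at 0 in both libraries, while Klrb1c and Eomes of the natural killer list were at 1.73 and 1.68 TPM and at 1.74 and 1.16 TPM, and Kit of the mast cell list was at 1.59 and 0.93 TPM. Several of the mediators are also made by those cells, and the part of such cells in the levels below was not tested.

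Suppression by secreted factors is one of several ways in which Treg cells act, beside consumption of interleukin 2 and contact through inhibitory receptors. Interleukin 10 is a homodimer that quiets macrophages and dendritic cells and is best known in Treg cells of the gut and other barrier tissues. Interleukin 35 is a heterodimer of the Ebi3 and Il12a products, and Ebi3 can instead pair with the Il27 product to form interleukin 27. Fgl2 encodes a fibrinogen-like protein whose secreted form binds Fc receptors. Areg encodes amphiregulin, an EGF family growth factor by which tissue Treg cells promote repair. Penk encodes proenkephalin, a precursor that proteases cut at pairs of basic residues to free short opioid peptides.

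The coding repeats of Penk are shown because this gene had the highest level of the 6 and because its product acts only after it is cut into peptides. A search of the coding sequence of the transcript Penk-201 for in-frame codons of the enkephalin pentapeptides found 7 copies in 268 codons, of which 6 were Met-enkephalin and 1 was Leu-enkephalin. In the following sequences from GENCODE M21 (mm10, chromosome 4, minus strand, read 5′ to 3′), capitals mark the 15 bases of the pentapeptide and lower case marks 6 flanking bases on each side.
Penk copy 1, chr4:4134328-4134354: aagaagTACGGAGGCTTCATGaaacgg
Penk copy 2, chr4:4134307-4134333: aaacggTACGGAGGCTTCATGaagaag
Penk copy 3, chr4:4134220-4134246: aagaggTATGGCGGCTTCATGaagaag
Penk copy 4, chr4:4134067-4134093: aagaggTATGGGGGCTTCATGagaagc
Penk copy 5, chr4:4133995-4134021: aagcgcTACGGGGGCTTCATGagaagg
Penk copy 6, chr4:4133935-4133961: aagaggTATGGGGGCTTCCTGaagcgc
Penk copy 7, chr4:4133842-4133868: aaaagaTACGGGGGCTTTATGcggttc
Copy 6 is the Leu-enkephalin copy. A pair of codons for basic residues, the cutting signal of prohormone proteases, stood directly before 7 of 7 copies and directly after 5 of 7, the exceptions being copies 4 and 7. Copies 1 and 2 lie back to back and share the basic pair between them. The same in-frame search over the coding sequences of 21901 genes found at least 1 copy in 10 genes (0.0457%) and 2 or more copies in 2 genes, Penk with 7 and the prodynorphin gene Pdyn with 3. Pdyn had a TPM of 0 in both libraries, so Penk was the 1 gene of that pair with expression in these cells.

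Penk stood at 91.3 TPM in the first library and 99.3 TPM in the second, a mean of 95.3 ± 5.65 TPM. It lies on chromosome 4 from 4133531 to 4138819 (mm10). Both libraries placed it above the other 5 members, and it made up 63.4% and 65.3% of their summed TPM. Its level was 84.3% and 89.7% of that of Foxp3 in the respective libraries, and it exceeded 81.5% of the 10583 protein-coding genes that reached 1 TPM in each library, the level taken here as detected. These values rested on 2503 and 2578 estimated counts, with exact Poisson 95% intervals of 2406 to 2603 and 2479 to 2679 that cover counting error only.

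Ebi3 and Fgl2 formed the middle of the order. Ebi3, on chromosome 17 from 55952640 to 55957022, stood at 22.0 and 27.6 TPM in libraries 1 and 2, a mean of 24.8 TPM. Fgl2, on chromosome 5 from 21372642 to 21378374, stood at 24.4 and 20.8 TPM, a mean of 22.6 ± 2.60 TPM. The libraries disagreed on which is higher: Fgl2 led in library 1 and Ebi3 in library 2, so their levels did not differ beyond the technical spread. Before length correction Fgl2 had 1932 and 1593 estimated counts against 513 and 626 for Ebi3, 3.76 and 2.54 times as many. The Fgl2 transcript is 3788 bases long and that of Ebi3 1154 bases, and per length the ratio was 1.11 and 0.751. Both genes lay a little below the middle of the detected protein-coding genes, above 43.4% of them for Ebi3 and 41.0% for Fgl2.

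Il10 and Areg were detected at low levels. Il10, on chromosome 1 from 131019845 to 131024974, stood at 4.24 and 2.98 TPM in libraries 1 and 2. Areg, on chromosome 5 from 91139599 to 91148432, stood at 1.95 and 1.13 TPM, a mean of 1.54 ± 0.580 TPM. Library 1 was the higher library for both, and the lower Il10 value still lay above the higher Areg value. Il10 rested on 113 and 77 reads and Areg on 48 and 27, with Poisson 95% intervals for Areg of 35.4 to 63.6 and 17.8 to 39.3 reads. Among detected protein-coding genes 10.1% lay below Il10 and 2.07% below Areg. Penk exceeded Il10 by 21.5-fold and 33.3-fold in libraries 1 and 2.

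Il12a was at the edge of what these libraries can show. Its level was 0.08 and 0.18 TPM in libraries 1 and 2, from 2 and 4 estimated counts, with Poisson 95% intervals of 0.242 to 7.22 and 1.09 to 10.2 reads. The gene lies on chromosome 3 from 68690644 to 68698547. The deposited posterior mean was higher, at 0.35 and 0.46 TPM, and its intervals of 0.126 to 0.613 and 0.187 to 0.774 TPM lie above the deposited TPM. By either estimate both libraries put the gene below 1 TPM and below each of the other members. By the rule of 1 TPM in each library 5 of the 6 members were detected, against 23.9% of all annotated genes and 48.0% of protein-coding genes.

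**Figure D1:**
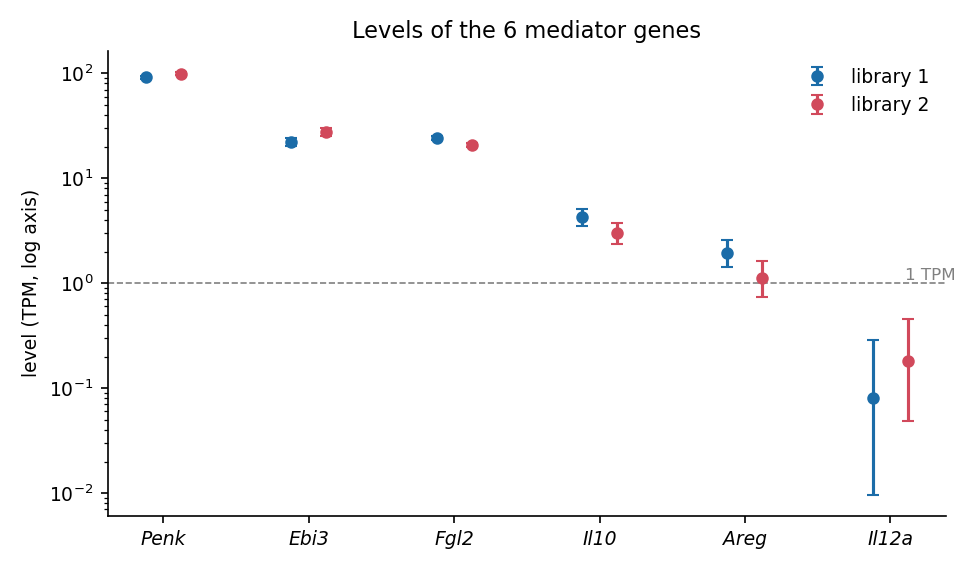
Level of each mediator gene in TPM (log axis) in library 1 (blue) and library 2 (red), with bars for the exact Poisson 95% interval of the count. Penk sits near 100 TPM, Ebi3 and Fgl2 change places between the libraries, and Il12a lies below the dashed line at 1 TPM in both.

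The order from Penk down to Il12a had 5 pairs of neighbours. In 4 of them (Penk above Ebi3, Fgl2 above Il10, Il10 above Areg, Areg above Il12a) the values of the libraries did not overlap, and in the remaining pair, Ebi3 and Fgl2, they did. Penk exceeded Ebi3 by 4.15-fold and 3.59-fold, and Fgl2 exceeded Il10 by 5.76-fold and 6.97-fold. With 2 technical libraries of 1 biosample these gaps have no test, and they describe this RNA sample.

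The subunits that could make interleukin 35 were far apart. Per length, Ebi3 exceeded Il12a by 275-fold and 154-fold in libraries 1 and 2. Allowing only for the Poisson interval of the Il12a count, the ratio ranged from 76.1 to 2269 in library 1 and from 60.0 to 563 in library 2. By the deposited posterior means the ratio was 58.5 and 55.9, below both of those ranges. The other partner of Ebi3, Il27, had 0 reads in either library, a count that leaves room for up to 3. Transcript levels of the subunits do not measure the protein.

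The gene counts of 4 members, Il10, Areg, Fgl2 and Il12a, were whole numbers with a deposited standard deviation of 0.00, so no read of these genes was divided with another gene. Fgl2 lies inside Ccdc146 on the opposite strand without a shared exon base, and Ccdc146 itself stood at 0.11 and 0.10 TPM. The exons of Ebi3 share 270 of 1154 bases with Gm16712, an antisense gene at 2.56 and 3.02 TPM, and the deposited standard deviation of the Ebi3 count was 3.74 and 3.35 reads. The exons of Penk share 233 of 1634 bases with A830012C17Rik, a noncoding gene on the opposite strand at 1.20 and 1.18 TPM. Strandedness is not given in the sources used here, so reads of Ebi3 and Penk over those bases cannot be told apart from reads of the opposite genes.

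Of the 6 genes 4 (Il10, Ebi3, Fgl2 and Areg) have 1 annotated transcript, Penk has 2 and Il12a has 6. Penk-201 was at 78.4 and 80.9 TPM and Penk-202 at 12.9 and 18.4 TPM, so Penk-201 took 83.7 ± 3.07% of the TPM of the gene. The models begin 342 bases apart: Penk-202 starts with an upstream noncoding exon of 185 bases that Penk-201 lacks, and Penk-201 starts within the intron that follows it in Penk-202. The models share 536 bases, Penk-201 alone has 913 and Penk-202 alone has 185. Penk-202 is annotated with an incomplete end and stops inside the coding sequence, where it holds 3 of the 7 enkephalin copies. All reads from the last 581 bases of the gene can be given only to Penk-201, so the shares do not measure use of the start sites. For Il12a, 2 reads in library 1 and 3.06 in library 2 were given to the protein-coding Il12a-202, and 0.94 in library 2 to the retained-intron transcript Il12a-205. That division has no weight at these counts.

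**Figure D2:**
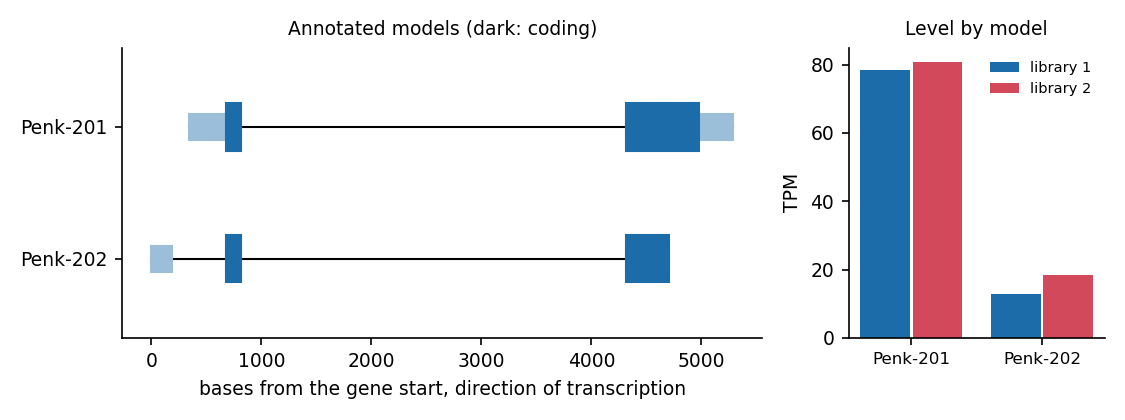
Left, the annotated Penk transcripts along the gene, in bases from the gene start in the direction of transcription, with coding parts dark. Right, the TPM of each model in library 1 (blue) and library 2 (red). Penk-201 is the higher in both libraries, and Penk-202 ends before the shared coding exon does.

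The older M4 tables give whole-number read counts per gene and were read as a second quantification of the same libraries. They held 1052 and 1108 counts for Penk, 608 and 526 for Fgl2, 331 and 408 for Ebi3, 69 and 34 for Il10, 42 and 21 for Areg, and 1 and 4 for Il12a. This is the order of the M21 estimated counts in both libraries. The M4 count was 31.5% and 33.0% of the M21 count for Fgl2, 42.0% and 43.0% for Penk, and 87.5% and 77.8% for Areg. The M4 totals were 9576557 and 8937887 over 22457 genes. The M21 totals were 34697128 and 32049199 over 55536 genes. Each share named here exceeded that of the totals. Among the 5 members with 10 reads or more in both tables the share was lowest for Fgl2 and highest for Areg in each library. The deposited interval of TPM also differs from the deposited TPM. For Penk it ran from 81.4 to 88.9 in library 1 and from 88.2 to 96.4 in library 2, below the TPM in each case, and for Fgl2 it likewise lay below in both libraries, as it did for 31.2% and 30.1% of all detected genes. It held the TPM for Ebi3, Il10 and Areg in both libraries, and it lay above the TPM for Il12a.

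A comparison of the technical libraries shows how precisely each member was measured. Ratios are library 2 over library 1 of TMM-scaled counts, and each pair of counts was put to an exact two-sided binomial test, which covers counting error only, with Benjamini-Hochberg adjustment over 18746 genes. The test called 36.5% of all genes, 19.2% towards library 1 and 17.2% towards library 2, and it called 3 of the 5 members that had enough reads. Ebi3 was higher in library 2, with a log2 ratio of 0.40 (95% counting interval 0.23 to 0.57, adjusted p = 2.8e-05). Penk was higher in library 2 with a log2 ratio of 0.16 (0.08 to 0.24, adjusted p = 0.00063), and Fgl2 was higher in library 1 with -0.16 (-0.26 to -0.07, adjusted p = 0.0036). Il10, at -0.44 (-0.88 to -0.01), and Areg, at -0.70 (-1.45 to -0.01), had adjusted p of 0.099 and 0.091 by the exact test. Il12a, with 6 reads in all, was under the minimum of 10.

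**Figure D3:**
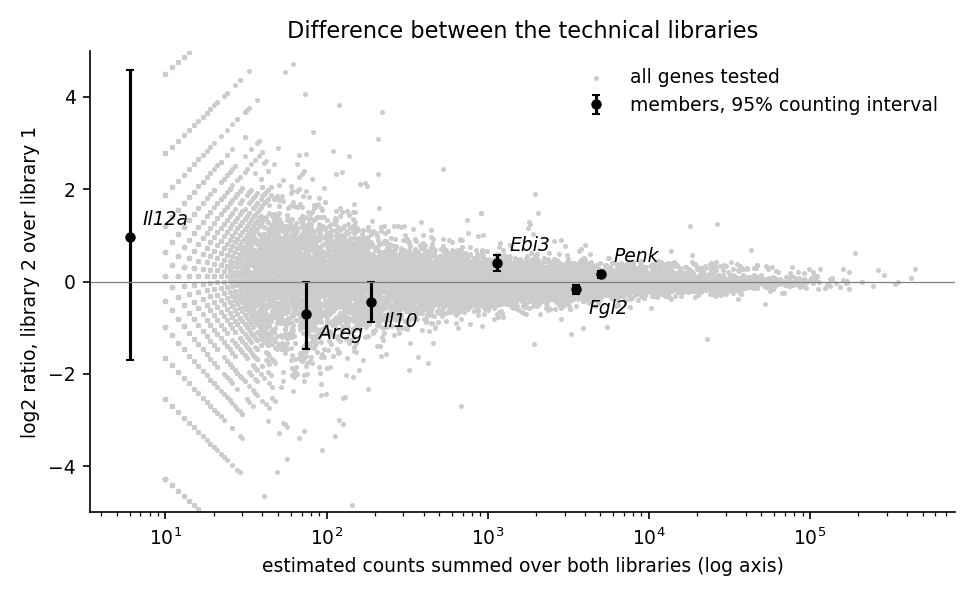
Log2 ratio of library 2 over library 1 against the estimated counts summed over both libraries (log axis), for the genes tested (grey) and the 6 members (black, bars for the 95% counting interval). Of 18746 genes 134 lie outside the plotted range of 5 on either side of 0, and the members lie within the grey cloud of genes with similar counts, Il12a to its left.

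The ratios were set beside those of genes of like depth. Among genes with between 0.5 and 2 times the reads, 89.8% had a smaller ratio in either direction than Ebi3, 73.4% than Penk, 70.7% than Fgl2, 66.6% than Areg and 62.4% than Il10. All 5 thus lay above the median of genes of like depth, Ebi3 furthest. With edgeR's exact test, which adds the common dispersion, 2.98% of genes and 0 members were called, with adjusted p of 0.87 for Areg and 1 for the other 4. By that test 0 of the 5 had an unadjusted p under 0.05, the lowest being 0.14. The dispersion was estimated from the difference between these same libraries, so the lack of calls does not show that the members did not differ. In the M4 counts, where the binomial test called 14.4% of genes, Il10 was called at a log2 ratio of -0.92 (adjusted p = 0.019, exact binomial) and Fgl2 and Penk were not. Plasma cell, dendritic cell, natural killer, mast cell and B cell markers also had lower sums in library 2, and 6 of the 8 macrophage, monocyte and neutrophil markers were lower there, among them Lyz2 at 14.4 and 11.9 TPM and Csf1r at 4.34 and 1.91 TPM. The other two, S100a8 and S100a9 of neutrophils, had 0 reads in library 1 and 32 and 20 in library 2. Sums of Treg cell markers, at 2652 and 2573 TPM, and of T cell markers, at 6187 and 5731 TPM, were lower in library 2 as well. The CD8 T cell sum was higher there, at 25.8 and 26.1 TPM. In libraries 1 and 2 the plasma cell sum was 3.70 and 2.69 TPM and the dendritic cell sum 3.16 and 2.35 TPM. Natural killer cell markers summed to 3.51 and 2.84 TPM, and mast cell and basophil markers to 2.48 and 1.36 TPM. The B cell sum was 50.4 and 45.5 TPM, and that of macrophages, monocytes and neutrophils 21.2 and 20.7 TPM. The part of other cells in the ratios of Il10, Areg and Fgl2 was not tested.

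Relatives, receptors and processing genes were taken from 16 lists, which hold 83 genes beside the members. Of these 40 were detected, or 48.2%, close to the 48.0% of all protein-coding genes, and their median was 1.38 and 1.36 TPM against 0.82 and 0.79 TPM for all protein-coding genes. The lists were far from uniform, and the ligands related to each member were mostly absent.

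For interleukin 10, the related ligands Il19, Il20, Il22 and Il24 had 0 reads in either library, a count that leaves room for up to 3 reads each. By contrast all 6 genes of its receptor and signal path were detected. Il10ra, the ligand-binding receptor chain, stood at 54.5 and 46.2 TPM, and Il10rb, the chain shared with related cytokines, at 129 and 118 TPM. The kinase gene Jak1 stood at 528 and 488 TPM, the signal transducer Stat3 at 195 and 177 TPM, and the feedback inhibitor Socs3 at 145 and 112 TPM. Every receptor and signal gene was thus above Il10 itself, the lowest being Il10ra at 12.9 and 15.5 times the Il10 level. The 8 transcription factors known to act on Il10 in T cells were all detected, among them Prdm1 at 13.1 and 9.58 TPM, Maf at 20.8 and 19.0 TPM, Bhlhe40, which restrains Il10, at 21.4 and 15.8 TPM, and Batf at 122 and 127 TPM.

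For the interleukin 12 family, 1 of 5 further ligand genes was detected. That gene, Clcf1, encodes a cytokine of the interleukin 6 family and stood at 32.1 and 35.4 TPM. Il23a and Il27 were at 0 in both libraries, and Il12b, the shared subunit of interleukins 12 and 23, was at 0.07 and 0.03 TPM. Receptor chains differed widely. Il27ra, the specific chain of the interleukin 27 receptor, reached 302 and 286 TPM, and Il6st, which encodes the shared chain gp130, 155 and 126 TPM. Il12rb1 stood at 29.2 and 25.1 TPM, while Il12rb2, which is a chain of the interleukin 12 and 35 receptors, was at 0.15 and 0.21 TPM and Il23r at 0.08 and 0.32 TPM. Among the kinase genes of this path Jak2 stood at 75.1 and 65.0 TPM and Tyk2 at 59.8 and 49.9 TPM.

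For amphiregulin, 2 of 10 other EGF family ligands were detected, Hbegf at 2.51 and 1.36 TPM and Nrg4 at 1.80 and 3.58 TPM. Egf was at 0.99 and 1.81 TPM, on either side of the minimum. Areg therefore stood among ligands of like level, and the order of these genes differed between the libraries. Egfr, the receptor that amphiregulin binds, had 17 reads in library 1 and 0 in library 2, at 0.23 and 0 TPM, and Erbb3 was the 1 detected member of 4 ERBB receptors at 6.0 and 3.33 TPM. Amphiregulin is made as a membrane precursor and is shed by the protease ADAM17 with iRhom partners. Of 5 shedding genes 4 were detected, with Adam17 at 50.5 and 43.8 TPM, Rhbdf2, encoding iRhom2, at 10.4 and 9.72 TPM, and Frmd8, which stabilises iRhoms, at 242 and 211 TPM. Rhbdf1 was at 0.76 and 0.57 TPM. Of 8 genes of tissue Treg cells, in which Areg is best known, 7 were detected, with the interleukin 33 receptor Il1rl1 at 11.0 and 10.6 TPM, Klrg1 at 51.1 and 53.0 TPM, and Pparg, the exception, at 0.91 and 1.40 TPM.

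For proenkephalin, the other opioid precursors were not detected. Pdyn was at 0 in both libraries, Pnoc at 0 and 0.07 TPM, and Pomc at 1.48 and 0.63 TPM. None of the 4 opioid receptors was detected either: Oprd1, the receptor that enkephalins favour, was at 0.01 and 0 TPM, and Oprm1 was highest at 1.38 and 0.79 TPM. The dedicated neuroendocrine convertases were near 0, with Pcsk1 at 0.11 and 0 TPM and Pcsk2 at 0 in both libraries. The widely expressed convertases Furin and Pcsk7 stood at 53.7 and 45.9 TPM and at 41.9 and 32.9 TPM. Cpe, which trims basic residues after cutting, was at 4.63 and 2.95 TPM, and Ctsl, a protease that can also cut proenkephalin, at 7.89 and 9.92 TPM. In all 6 of 11 processing genes were detected. Of 4 enkephalin-degrading enzymes Dpp3 stood at 90.4 and 78.2 TPM and Npepps at 36.9 and 31.4 TPM, while the surface peptidases Mme and Anpep were at most 0.28 TPM.

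For Fgl2, none of 4 fibrinogen relatives was detected, and the highest value among Fgl1, Fga, Fgb and Fgg was 0.07 TPM. The Fc receptor genes whose products bind secreted FGL2 were low, with Fcgr2b at 0.42 and 0.54 TPM and Fcgr3 at 1.33 and 0.82 TPM. These receptors are expressed mainly on B cells and myeloid cells.

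**Figure D4:**
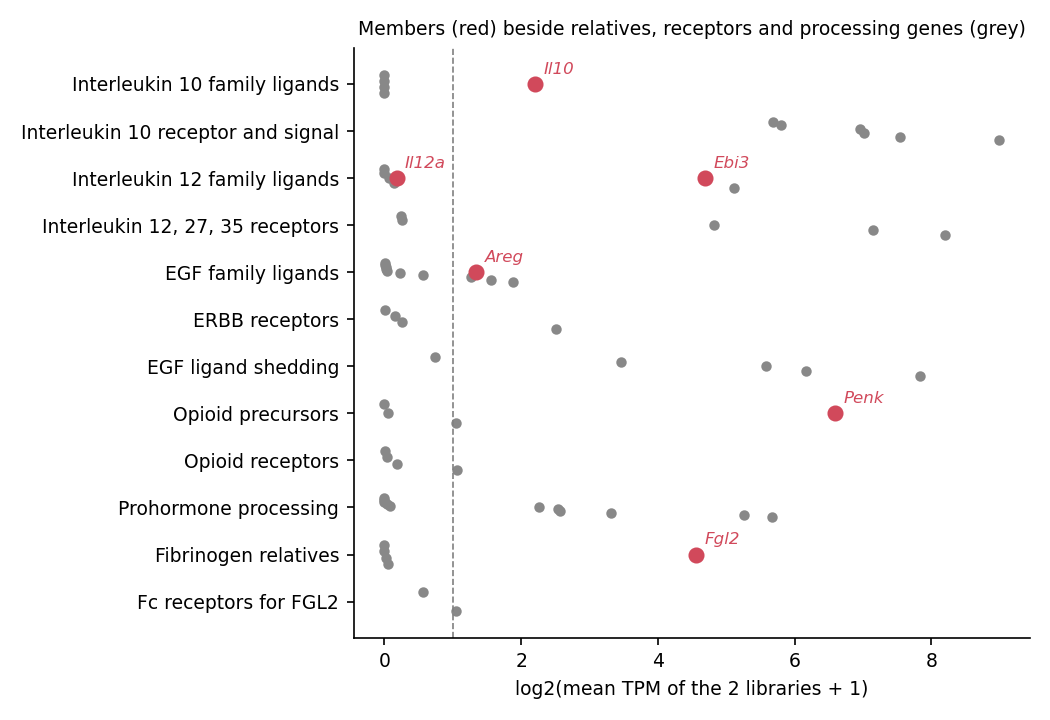
Mean level of each listed gene as log2(TPM + 1), by list, with members in red and other genes in grey, and a dashed line at 1 TPM. Il10, Fgl2 and Penk lie above all relatives in their own lists, Ebi3 lies just below Clcf1, and Areg lies among other EGF ligands.

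For scale, 7 other suppressive mediators and receptors spanned 2.88 TPM for Lag3 in library 1 to 278 TPM for Lgals1 in library 2. Penk stood below Tgfb1, at 125 and 119 TPM, and above Entpd1, whose lower value was 31.3 TPM, in both libraries. Ebi3 and Fgl2 stood below Entpd1 and above Gzmb, which was at 6.28 and 7.52 TPM. Il10 lay near Lag3, above it in library 1 and below its 3.17 TPM in library 2.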

How the data were processed

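The authors deposited, for each of the 2 technical libraries, gene and transcript tables on mm10 with GENCODE M21. Per the file headers these hold estimated counts, in which shared reads are divided by a model, TPM and FPKM. They also hold posterior means, standard deviations of counts and TPM intervals, whose level is not given in the sources used here. The deposited M4 tables hold whole-number read counts per gene, 9576557 and 8937887 in all. The aligner, quantifier, counter and strandedness are likewise not given in the sources used here.

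All 55536 annotated genes of the M21 release were kept, and rows that name no gene, with 0.197% and 0.212% of estimated counts, were left out. Names and coordinates (1-based) came from GENCODE M21. Detection means 1 TPM or more in both libraries. Estimated counts were rounded, scaled by TMM in edgeR 4.0.16 and put to a two-sided exact binomial test where both libraries together held 10 or more, at an adjusted p of 0.05, with a prior count of 0.5 in log2 ratios. With 1 library a side no residual degrees of freedom remain for a quasi-likelihood fit. The binomial test and edgeR's exact test with a common dispersion were each tested on a separate simulated set, of 18813 and 18789 genes. Of 50 genes changed 1.25-fold in each set the binomial test called 34 and edgeR's test 0. Of 50 changed 1.5-fold they called 46 and 0, and of 50 changed 2-fold 50 and 17. p-values compare technical libraries only. PCR copies would make them too small, and such copies were not measured. Alternatives covered detection minimum, estimator, unit, scaling (DESeq2 1.42.0 size factors), filter, error model and table.

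Members and lists were chosen with earlier results of these data known. Named genes are all members, all listed genes, the cell type markers among them, and genes that overlap a member. Some listed genes are not reported here. The enkephalin search was added after the levels were seen.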

Additional observations from a re-analysis of the deposited data

Results flagged for a closer look

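Reads also stood in rows that no comparison used, above the 3 reads that a count of 0 allows. The 97 spike-in rows held 65856 and 65086 estimated counts in libraries 1 and 2. The 26248 tRNA rows held 2729 and 2879 estimated counts. None of these rows belongs to a mediator gene.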

How the results depend on the processing

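Of 94 alternative values, 81 kept their direction and call, moved within the technical spread or, for counts, stayed within 1.5 times the main count, and none reversed. Among those counts, 4 members in place of 5 were detected by FPKM at 1 or more, where Areg was at 0.72 in library 2, and 2 in place of 3 were called with M4 counts. At a detection minimum of 5 TPM 3 members were detected in place of 5. The posterior mean gave 88.8 TPM for Penk, 0.405 TPM for Il12a, 57.2 for the ratio of Ebi3 to Il12a, and 19.7% for the share of Il12a-202 in Il12a. The share of Penk-201 was 91.4% by estimated counts. With edgeR's exact test and the common dispersion 0 members were called between the libraries, at log2 ratios of 0.40 for Ebi3, -0.16 for Fgl2 and 0.16 for Penk. With M4 counts Il10 was called at -0.92, and Fgl2 at -0.12 and Penk at 0.16 were not. The cause of these changes was not tested. With 1 library left out, the ratio of Ebi3 to Il12a ran from 154 to 275, the level of Il12a from 0.08 to 0.18 TPM and that of Areg from 1.13 to 1.95 TPM. The 81 include values that could not have moved. A level, ratio or share from 1 library always lies within the technical spread of the 2 libraries. For a gene with 1 annotated transcript, restriction to protein-coding transcripts cannot change the level. No paired analysis was possible because there is 1 group. Depth limits Il12a, with 6 reads in all, and Areg, with 75 in both libraries. Only 1 biosample was sequenced, so no value here has a biological error.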
